A study of Mus musculus with 2 samples.

Results

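The outer dense fibre (Odf) gene family was followed through spermatogenesis in 1 Nsun7 knockout and 1 wild-type (WT) library of single cells from adult mouse testis. All 8 listed genes were found by symbol in both gene lists, among 30052 symbols in all: Odf1, Odf2, Odf2l, Odf3, Odf3b, Odf3l1, Odf3l2 and Odf4. The Nsun7 knockout group was 1 library of dissociated testis cells, and the WT group was 1 library made in the same way. NSUN7 is a relative of RNA cytosine methyltransferases, and the title given to the series connects it with flagellum assembly. The labels give neither the strain, the number of animals in a library nor the part of Nsun7 that was deleted.

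The sperm tail is built on a microtubule axoneme. Along the midpiece and principal piece, the axoneme is surrounded by outer dense fibres, stiff cysteine-rich cables that lie beside the outer microtubule doublets and protect the tail from shear. ODF1 and ODF2 are among their main proteins, made while the spermatid nucleus elongates and its histones give way first to transition proteins (TNP1, TNP2) and then to protamines (PRM1, PRM2). Other genes were named Odf for a product found in the sperm tail or for sequence likeness: ODF2L is a relative of ODF2 at centrioles and basal bodies, ODF4 is a sperm tail protein, and the Odf3 group encodes relatives of SHIPPO1, now called ciliary microtubule-associated proteins.

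After filtering, the knockout library held 13869 cells and the WT library 15139. The median cell had 12020 unique molecular identifiers (UMIs) in the knockout and 8723 in WT. Cells were clustered without the Odf genes and Nsun7, and clusters were named from marker genes, so each class is to be read as "like" its type. Spermatids were then divided by the share of Prm1 plus Prm2 and of Tnp1 in a cell's counts. Round spermatids are cells of the round class with a protamine share under 5%. Condensing spermatids had a share of 5 to 15% and were split at a Tnp1 share of 1% into Tnp1-high and Tnp1-low cells. At 15% or more, cells with Tnp1 at 1% or more are called mid condensing and those under 1% late condensed. A further set, called low-protamine elongating cells, belonged to the elongating class but had a protamine share under 5% and few UMIs (medians of 2076 in the knockout and 2689.5 in WT). The split at 1% Tnp1 within the 5 to 15% range, and the setting apart of low-protamine elongating cells, were chosen after the data were seen. Near the limits lay 3739 of 9981 knockout and 1934 of 7182 WT spermatids within 3 percentage points of 15%, and 329 and 190 within 1 point of 5%.

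From spermatogonia to late condensed spermatids the knockout library gave 388 spermatogonia, 474 early spermatocytes, 1293 late spermatocytes, 1091 round, 5270 Tnp1-high condensing, 826 mid condensing and 982 late condensed spermatids. The WT library gave 983, 1068, 3767, 1890, 2422, 197 and 847 cells of those stages. Tnp1-low condensing cells numbered 1217 in the knockout and 1418 in WT, and low-protamine elongating cells 595 and 408. There is 1 library per genotype, so no difference between them could be tested against replicates. Levels are counts per 1000000 counts of a stage (CPM), and all intervals are 95% intervals for counting error only. Levels are compared for a gene with itself, because no length correction was made. Nsun7 itself stood at 41.5 CPM in knockout and 221 CPM in WT round spermatids. The labels do not say whether the counted part of the transcript lies inside the deletion.

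RNA released from broken cells gives UMIs in cells that do not express a gene, so Leydig-like cells, which are somatic, served as the background. They held 579 CPM of Odf1 in the knockout and 420 in WT, and 789 and 735 CPM of Odf2. The other genes were lower there, with Odf4 at 26.3 CPM in the knockout and 27.3 in WT, Odf3b at 14.9 and 8.89, Odf2l at 11.6 and 16.5, Odf3 at 7.79 and 8.68, and Odf3l1 at 1.56 and 5.29. A level at or below these values is read as background. Leydig-like cells were deep, with medians of 14178 UMIs in the knockout and 10473 in WT, and shallower somatic cells held more. Macrophage-like cells, with medians of 2211.5 and 2057 UMIs, held 2621 CPM of Odf1 in the knockout and 1937 in WT and 3519 and 2864 CPM of Odf2. They also held 100.4 and 78.6 CPM of Odf4, 81.2 and 33.1 CPM of Odf3b, and 37.1 and 30.3 CPM of Odf3. Passing the Leydig-like level therefore does not by itself set a germ cell level apart from free RNA.

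The members with measurable RNA were highest at 3 different times. Odf2l was highest in early spermatocytes, Odf3 and Odf3l1 in round spermatids, and Odf1, Odf2, Odf3b and Odf4 in cells with high protamine shares. Among the groups defined above, these times were alike in both libraries, except that knockout Odf1 was higher still in low-protamine elongating cells. WT Odf1 also passed its late condensed level of 10287 CPM in part of those cells. At a protamine share of 1 to 2% with Tnp1 under 1%, Odf1 was at 32843 CPM in the knockout and 28852 CPM in WT. Odf3l2 was close to absent.

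**Figure D1:**
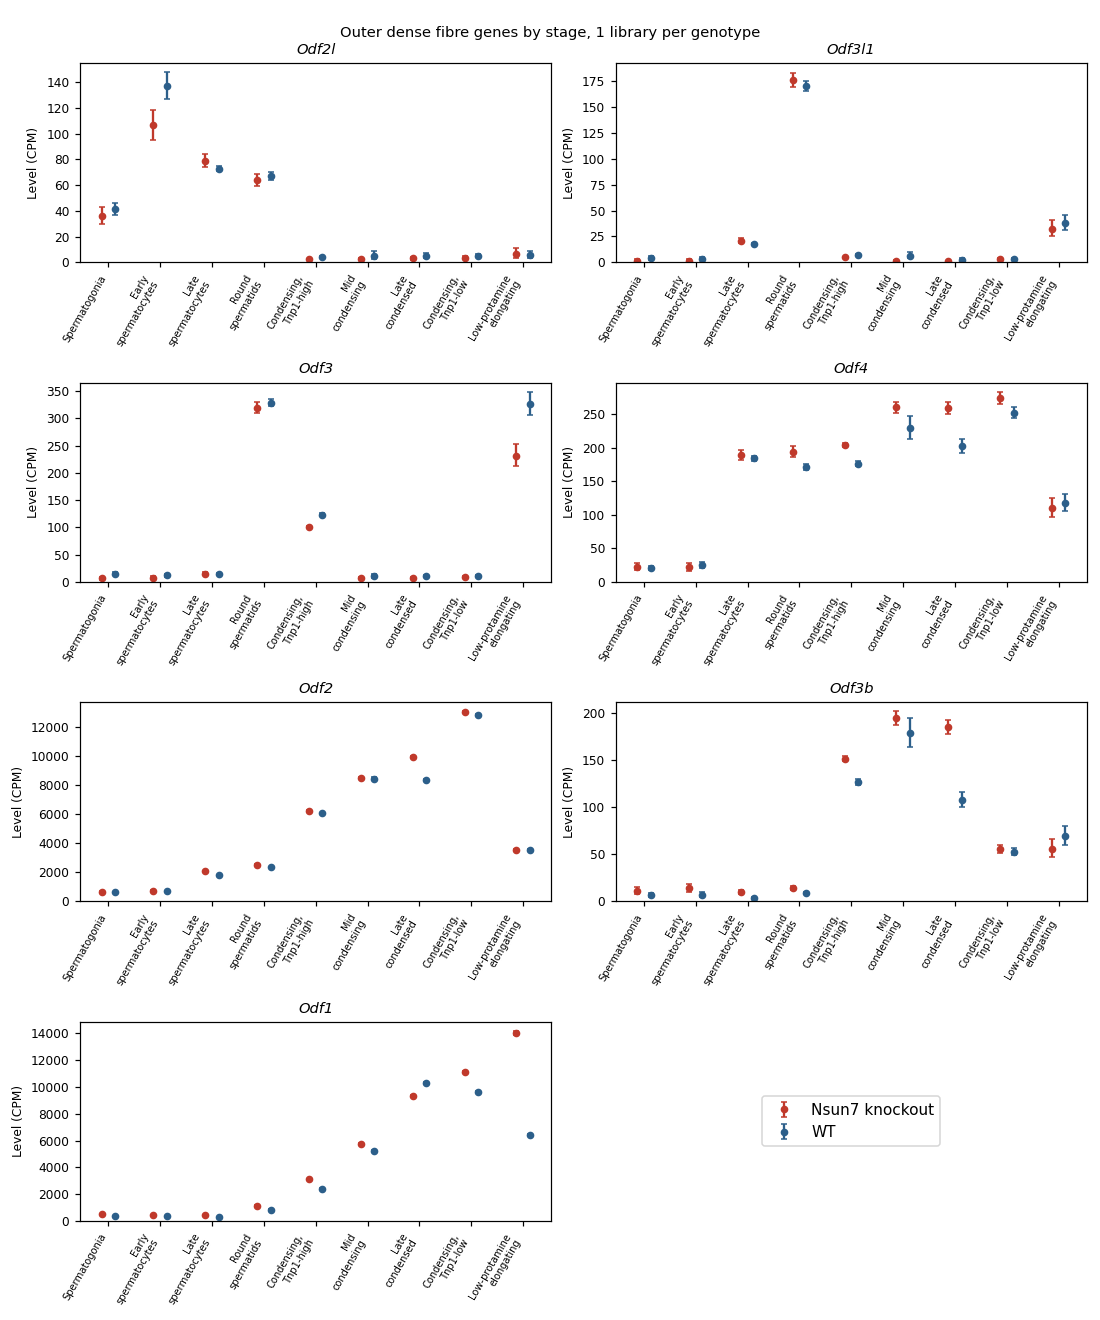
Level of each of 7 Odf genes in 9 groups of germ cells, in CPM on the vertical axis, with Nsun7 knockout in red to the left of WT in blue; bars are 95% Poisson intervals for counting error, and each panel has its own scale. Odf2l is highest in early spermatocytes, Odf3 and Odf3l1 in round spermatids, and Odf1 and Odf2 in cells with high protamine shares, except that knockout Odf1 is highest in low-protamine elongating cells.

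Odf2 (chr2:29889221-29931746, plus strand, GRCm38, up to 22 exons in an annotated transcript) encodes cenexin, a fibre protein that is also found at centrosome appendages. In spermatogonia it stood at 664 CPM in the knockout and 660 CPM in WT, and in early spermatocytes at 742 and 702 CPM, all below the Leydig-like level of the same library. In late spermatocytes it reached 2067 CPM in the knockout and 1846 CPM in WT, above the Leydig-like and below the macrophage-like level. Subtracting the free RNA estimated from 4 Leydig steroid genes left 1797 CPM in knockout and 1699 CPM in WT late spermatocytes. In early spermatocytes it left 387 CPM in the knockout and 319 CPM in WT, so the subtraction and the Leydig-like level differ there. Round spermatids held 2547 CPM in the knockout and 2389 CPM in WT, and Tnp1-high condensing cells 6270 and 6088 CPM. Mid condensing cells were at 8522 and 8449 CPM, and late condensed cells at 9974 and 8399 CPM. The highest values were in Tnp1-low condensing cells, 13053 CPM in the knockout and 12842 CPM in WT, which is 5.12-fold and 5.38-fold the level of round spermatids. The low-protamine elongating cells, at 3568 CPM in the knockout and 3520 CPM in WT, went against this, lay nearer to round spermatids, and differed little from the macrophage-like level of the knockout, 3519 CPM.

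RefSeq (GRCm38.p6) gives upstream windows for 6 of the 8 genes, and 3 are shown because they belong to genes with different courses: Odf2 and Odf4, above the Leydig-like level from late spermatocytes on, and Odf3l1, highest in round spermatids. Each holds 250 bases before a RefSeq start, 5′ to 3′ on the gene's strand, with no annotated exon base, and capitals mark matches of TGACG or GTTGCC. The Odf2 and Odf3l1 windows lie inside the annotated gene spans, so they are upstream of those RefSeq starts and not of the whole gene.
Odf2, chr2:29889470-29889719, plus strand: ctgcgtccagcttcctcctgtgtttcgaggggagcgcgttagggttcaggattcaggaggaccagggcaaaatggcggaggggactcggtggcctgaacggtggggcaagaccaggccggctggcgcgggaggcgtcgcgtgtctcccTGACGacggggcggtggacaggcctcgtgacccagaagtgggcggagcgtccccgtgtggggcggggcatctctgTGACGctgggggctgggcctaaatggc
Odf3l1, chr9:56853815-56854064, minus strand: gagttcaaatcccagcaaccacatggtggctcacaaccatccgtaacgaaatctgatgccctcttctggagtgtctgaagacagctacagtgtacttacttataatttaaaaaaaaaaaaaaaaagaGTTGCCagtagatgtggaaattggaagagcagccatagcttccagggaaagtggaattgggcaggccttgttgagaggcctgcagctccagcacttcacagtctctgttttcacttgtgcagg
Odf4, chr11:68927082-68927331, minus strand: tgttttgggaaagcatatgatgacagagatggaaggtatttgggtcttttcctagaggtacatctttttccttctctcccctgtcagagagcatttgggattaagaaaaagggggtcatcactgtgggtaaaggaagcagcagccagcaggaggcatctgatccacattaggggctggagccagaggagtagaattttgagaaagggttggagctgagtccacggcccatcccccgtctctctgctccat
The search, on both strands, was for the cyclic AMP response element TGACGTCA and its half-site TGACG, which CREM, an activator in spermatids, binds. It also took in the half-site GTTGCC of the X-box, bound by RFX factors that act on ciliary genes. The TATA box was searched for as TATAAA. The CCAAT box was searched for as CCAAT. The printed Odf2 window held TGACG starting at -102 and -27, counted from -1 at the base before the start. Of its other windows, the one from 29889567 held TGACG at -199 and -124, and those from 29889740 and 29889813 held none. Of 32851 RefSeq windows of this length, 17.8% held TGACG on either strand. The Odf3l1 window held GTTGCC at -123, and the window of its other start held it at -103 on the opposite strand. The printed Odf3l1 window also held CCAAT on the opposite strand at -104 and -68, left in lower case, a motif found in 33.8% of all windows. Odf3, the other gene with a peak in round spermatids, held GTTGCC at -65, in bases that are exonic in the annotation. GTTGCC was present in 10.4% of all windows. The Odf4 window held none of the 5 motifs. A match of letters describes the window and is not a binding site.

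Odf4 (chr11:68921835-68927081, minus strand, up to 5 exons), which encodes a testis-specific sperm tail protein, was already near its later level in late spermatocytes. Early spermatocytes held 22.0 CPM in the knockout and 24.9 CPM in WT, both below the Leydig-like level. Late spermatocytes held 189 CPM in the knockout and 184 CPM in WT, and round spermatids 195 and 172 CPM. Mid condensing cells were at 261 CPM in the knockout and 230 CPM in WT, late condensed cells at 259 and 203 CPM, and Tnp1-low condensing cells at 275 and 253 CPM. Tnp1-high condensing cells were at 204 CPM in the knockout and 177 CPM in WT. Low-protamine elongating cells were lower, at 110 CPM in the knockout and 118 CPM in WT. After every cell was thinned to 1000 UMIs, 17.5% of knockout and 16.8% of WT late spermatocytes held an Odf4 UMI, against 3.66% and 2.40% of Leydig-like cells. Without thinning the shares were 52.1% and 69.8% of late spermatocytes and 25.4% and 22.5% of Leydig-like cells, at median depths of 3564 and 10241 UMIs in late spermatocytes and 14178 and 10473 in Leydig-like cells.

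Odf2l (chr3:145118588-145153915, plus strand, up to 17 exons) ran the other way. Spermatogonia held 36.1 CPM in the knockout (29.9 to 43.2) and 41.4 CPM (36.9 to 46.2) in WT, and early spermatocytes 106 CPM (95.05 to 119) in the knockout and 137 CPM (127 to 147) in WT. Late spermatocytes were at 78.7 and 72.8 CPM, and round spermatids at 63.9 and 67.1 CPM. In Tnp1-high condensing cells it was down to 2.67 CPM in the knockout and 3.999 CPM in WT, below the Leydig-like level. After thinning, an Odf2l UMI was found in 12.2% of knockout and 12.6% of WT early spermatocytes, against 0.845% and 0.901% of Leydig-like cells. Without thinning the shares in early spermatocytes were 35.9% and 37.5%, at median depths of 4177.5 and 3370.5 UMIs.

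Odf3 (chr7:140847805-140851018, plus strand, up to 7 exons) encodes SHIPPO1, and Odf3l1 (chr9:56848659-56864679, minus strand, up to 6 exons) a relative of it. Odf3 stood at 15.3 CPM in knockout and 15.1 CPM in WT late spermatocytes, and at 320 CPM (310 to 329) and 329 CPM (322 to 335) in round spermatids. Tnp1-high condensing cells kept 99.8 CPM in the knockout and 123 CPM in WT. Mid condensing cells, at 7.68 and 10.9 CPM, and late condensed cells, at 7.63 and 10.8 CPM, were close to the Leydig-like level. The annotation places Gm45785 on the opposite strand over Odf3, and the sources used here do not say whether counting used strand, so reads of the 2 genes may not be told apart.

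Odf3l1 stood at 20.9 CPM in knockout and 17.4 CPM in WT late spermatocytes and at 176 CPM (169 to 183) and 170 CPM (166 to 175) in round spermatids, 8.44-fold and 9.78-fold higher. Its level was lower sooner than that of Odf3. Tnp1-high condensing cells held 4.81 CPM in the knockout and 7.29 CPM in WT, 36.6-fold and 23.4-fold below round spermatids, whereas Odf3 was 3.20-fold and 2.66-fold lower there. After thinning, 27.5% of knockout and 26.0% of WT round spermatids held an Odf3 UMI, against 0.282% and 0.901% of Leydig-like cells. For Odf3l1 these shares were 12.9% and 14.0% of round spermatids and 0 of 355 and 0.300% of Leydig-like cells, where a limit of 3 cells is 0.845% and the Clopper-Pearson upper bound 1.03%. Without thinning, 67.6% and 76.9% of round spermatids held an Odf3 UMI and 54.4% and 65.9% an Odf3l1 UMI, at median depths of 4664 and 9207 UMIs.

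Odf3b (chr15:89377449-89379282, minus strand, up to 5 exons), another SHIPPO1 relative, had the latest onset. In round spermatids it was at 14.1 CPM in the knockout and 9.12 CPM in WT, within the counting error of the Leydig-like level. Tnp1-high condensing cells held 152 CPM in the knockout and 127 CPM in WT, and mid condensing cells 194 CPM (187 to 202) and 179 CPM (164 to 195). Late condensed cells were at 185 CPM in the knockout and 108 CPM in WT. Tnp1-low condensing cells held only 55.6 CPM in the knockout, under the macrophage-like level, and 52.8 CPM in WT, although Odf2 was highest there. Thinned to 1000 UMIs, 18.5% of knockout and 15.2% of WT mid condensing cells held an Odf3b UMI, against 1.41% and 0.300% of Leydig-like cells.

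Odf1 (chr15:38219203-38226735, plus strand, 2 exons) encodes the Cys-Gly-Pro repeat protein of the fibres; mice without it have sperm whose heads detach. In spermatogonia it stood at 495 CPM in the knockout and 340 CPM in WT, in early spermatocytes at 424 and 389 CPM, and in late spermatocytes at 431 and 275 CPM, all below the Leydig-like level of the same library. Subtracting the estimated free RNA still left 197 CPM in knockout and 189 CPM in WT early spermatocytes, and 201 and 149 CPM in late spermatocytes. The subtraction and the Leydig-like level thus differ for these stages. Round spermatids held 1143 CPM (1125 to 1161) in the knockout and 850 CPM (839 to 860) in WT. From there it was 2.73-fold higher in Tnp1-high condensing cells of the knockout, at 3118 CPM, and 2.84-fold higher in those of WT, at 2414 CPM. Mid condensing cells held 5771 CPM in the knockout and 5225 CPM in WT, and late condensed cells 9333 and 10287 CPM. Tnp1-low condensing cells held 11135 CPM in the knockout, above its late condensed level, and 9617 CPM in WT, below its late condensed level. Odf1 thus passed the Leydig-like level a stage later than Odf2, while its round level was still below the macrophage-like one, and kept a steeper course, with late condensed cells 8.17-fold and 12.1-fold above round spermatids, against 3.92-fold and 3.52-fold for Odf2.

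Odf3l2 (chr10:79639526-79645738, minus strand, 4 exons) had 1 count in the whole knockout library and 3 in the whole WT library. Both are at or under the limit of 3 counts, which is 0.0149 CPM of the kept knockout cells and 0.0140 CPM of the kept WT cells. The 3 WT counts were in late spermatocytes and the knockout count in a Tnp1-high condensing cell, and no difference can be read from them.

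**Figure D2:**
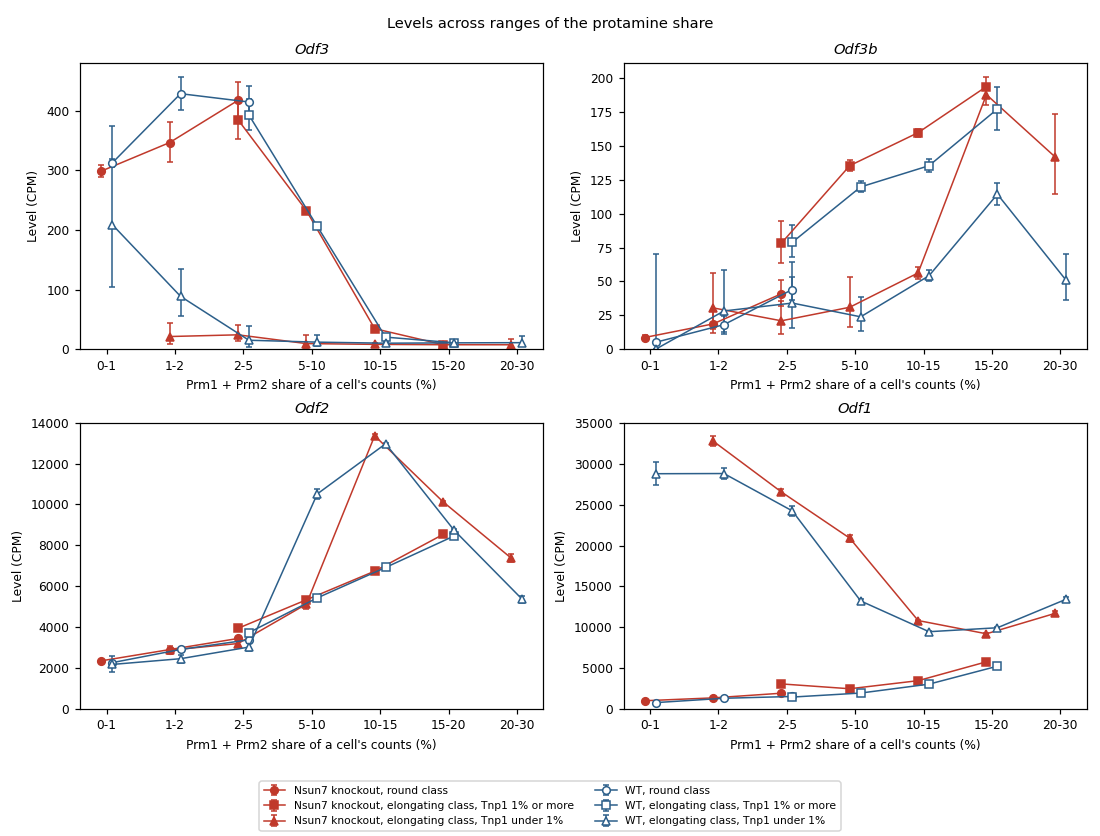
Levels in CPM of Odf3, Odf3b, Odf2 and Odf1 (vertical axis) in ranges of the protamine share of a cell's counts (horizontal axis, percent), with separate lines for the round class (circles), elongating cells with Tnp1 of 1% or more (squares) and elongating cells with Tnp1 under 1% (triangles). Nsun7 knockout is filled red and WT open blue, bars are 95% Poisson intervals, and ranges under 20 cells are left out; in elongating cells with Tnp1 under 1% Odf1 is highest at a protamine share of 1 to 2%, at 32843 CPM in the knockout and 28852 CPM in WT.

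Finer ranges of the protamine share showed how quickly these courses turned. Among Tnp1-high cells Odf3 was at 385 CPM in the knockout and 393 CPM in WT at a protamine share of 2 to 5%. At 5 to 10% it was at 233 CPM in the knockout and 206 CPM in WT, and at 10 to 15% at 34.6 and 20.4 CPM. Odf3b ran in the opposite direction over these 3 ranges, from 78.2 CPM in the knockout and 78.9 CPM in WT, through 135 and 120 CPM, to 160 and 135 CPM. Odf2 gained from 3935 CPM in the knockout and 3727 CPM in WT, through 5329.5 and 5424 CPM, to 6733 and 6914 CPM. Odf1 was at 3047 CPM in the knockout and 1434 CPM in WT in the first range, at 2454 and 1926 CPM in the second, and at 3444 and 3020 CPM in the third.

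Odf1 parted from Odf2 in 1 set of cells. Cluster c8 of the elongating class held 721 knockout and 418 WT cells, with medians of 2531 and 2936.5 UMIs. In it Odf1 reached 23945 CPM in the knockout and 21933 CPM in WT, while Odf2 was at 3539 and 3076 CPM. Counts of Odf1 per count of Odf2 were therefore 6.77 in the knockout and 7.13 in WT. In every other spermatid cluster with at least 50 cells of a library the ratio lay between 0.332 and 0.824. Within elongating cells with Tnp1 under 1%, Odf1 was highest at a protamine share of 1 to 2%, at 32843 CPM in the knockout and 28852 CPM in WT, in 117 and 120 cells. These cells had low depth, with medians of 2168 and 1878.5 UMIs, and the part of depth in their Odf1 level was not tested.

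**Figure D3:**
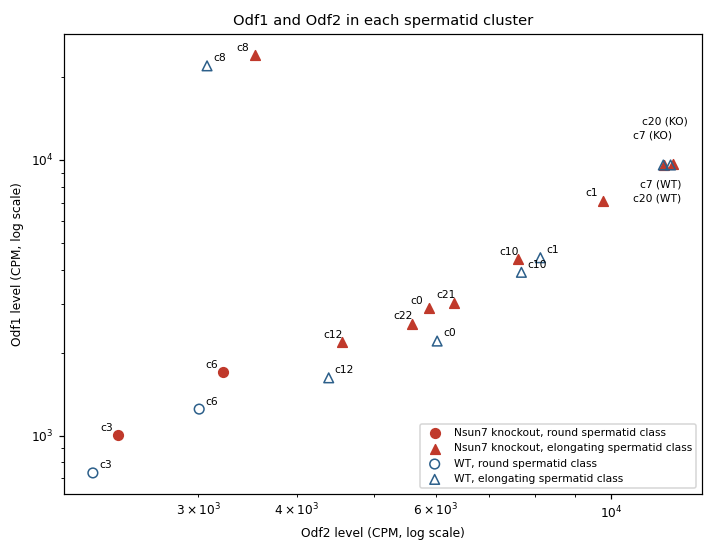
Odf1 level against Odf2 level, both in CPM on log scales, with 1 point per spermatid cluster and library; filled red points are Nsun7 knockout, open blue points WT, circles the round class and triangles the elongating class, and labels name the cluster. Cluster c8 lies apart in both libraries, with Odf1 at 23945 CPM in the knockout and 21933 CPM in WT at Odf2 levels near those of round spermatids, and all other clusters follow a single rising band.

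The genes whose course was most like that of each member were sought over 14 points, 7 stages in each library, among 6398 genes by Pearson's r of log2(CPM + 5). These points share libraries and the protamine shares that define stages, so r is a description. Odf1 was most like Azin2 (r = 0.997), Reep6 and Oaz3, and Odf2 most like Mea1 (r = 0.997), Sgms1 and Agpat3. Odf3b was most like Klk1b9 (r = 0.999), Prm1, which helped to set the stages, and Paqr5. Odf3 was most like Kif2b (r = 0.979), Erich3 and Hist1h4a, and Odf3l1 most like Spata45 (r = 0.997), Plac8l1 and Tex24. Odf2l was most like Baz2a (r = 0.996), Atxn2 and Rbm26, and Odf4 most like Bspry (r = 0.997), Kcnmb4os1 and March10. Among members, r was 0.93 between Odf1 and Odf3b, 0.92 between Odf1 and Odf2, 0.89 between Odf2 and Odf4 and 0.82 between Odf3 and Odf3l1. It was -0.94 between Odf2l and Odf3b.

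The knockout was then set against WT stage by stage, to show whether Odf RNA differed with the Nsun7 genotype. A gene counts as apart when the ratio, with 5 CPM added to each level, was 1.5-fold or more and the mean level was at least 10 CPM. In round spermatids 0 of 7 measured members were apart, beside 0.365% of 8219 genes. Odf1 was 1.35-fold higher in the knockout there (log2 ratio 0.43, 0.40 to 0.46), Odf4 1.13-fold higher, and Odf2, Odf3, Odf3l1 and Odf2l lay within 1.07-fold of WT. Odf3b was 1.54-fold higher at background level. Odf1 was also 1.38-fold higher in knockout than in WT Leydig-like cells, and the free RNA estimated from 4 Leydig steroid genes gave 235 CPM of Odf1 in knockout and 148 CPM in WT round spermatids. In Tnp1-high condensing cells 0 of 5 members were apart, beside 7.71% of 4966 genes. Odf1 was 1.29-fold higher in the knockout, Odf3b 1.197-fold and Odf4 1.16-fold higher, Odf2 1.03-fold higher, and Odf3 1.24-fold lower. For Odf3 the direction turned within the protamine ranges of this stage: it was 1.13-fold higher in the knockout at 5 to 10% and 1.697-fold higher at 10 to 15%. Odf2 was instead lower in the knockout within both ranges, at 5329.5 against 5424 CPM and 6733 against 6914 CPM. In mid condensing cells 0 of 4 members were apart, beside 11.4% of 4190 genes, and their log2 ratios ran from 0.01 for Odf2 to 0.18 for Odf4, with a median of 0.13 beside -0.07 for all genes. In Tnp1-low condensing cells 0 of 4 were apart, beside 9.23% of 4169 genes, with log2 ratios from 0.02 for Odf2 to 0.21 for Odf1 and a median of 0.09 beside -0.06. The libraries filled these condensing stages mostly from different clusters. In the whole 5 to 15% range c10 gave 1632 knockout and 46 WT cells, c21 1368 and 27, and c7 36 and 1150, whereas c12 gave 835 and 478. In mid condensing cells c10 gave 662 and 15 cells and c1 74 and 165. The protamine share of Tnp1-high cells was 10.9% in the knockout and 9.75% in WT. What part these differences have in the ratios was not tested.

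Scaling bears on the size of these ratios. The weighted trimmed mean of log2 ratios over genes, which sets the trimmed mean scaling, was -0.12 in the whole round range under 5%, -0.31 in the whole 5 to 15% range, -0.36 in mid condensing and -0.28 in late condensed cells. Medians over genes in the same ranges were nearer to 0, at -0.09, -0.07, -0.07 and -0.04. The size of the shift thus differed between these summaries, and the reason for the difference was not tested. Relative to the trimmed mean, each member's log2 ratio is higher by the same amount. With it the knockout lay above WT for Odf3 and Odf3l1 in the round range and for Odf1, Odf2 and Odf3 in the 5 to 15% range, all of which lay below WT with scaling by total counts.

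Late condensed cells held the 1 condensing-stage member that was apart, 1 of 4 measured, beside 13.6% of 4038 genes. Odf3b stood at 185 CPM (178 to 193) in the knockout and 108 CPM (100.5 to 116) in WT, 1.72-fold higher (log2 ratio 0.78, 0.66 to 0.90). Odf4 was 1.28-fold and Odf2 1.19-fold higher in the knockout, and Odf1 1.10-fold lower by total counts but higher with trimmed mean scaling. The median over these 4 members was 0.30, beside -0.04 for all genes. The libraries filled this stage differently: cluster c20 gave 740 knockout and 51 WT cells, and cluster c7 13 knockout and 630 WT cells, and the mean Tnp1 share was 0.428% in the knockout and 0.299% in WT. Within a Tnp1 share under 0.2%, Odf3b was at 79.0 CPM in the knockout and 36.8 CPM in WT, in 103 and 386 cells. At 0.2 to 0.5% it was at 178 CPM in the knockout and 138 CPM in WT, in 641 and 359 cells, and at 0.5 to 1% at 231 and 207 CPM, in 238 and 102 cells. Odf3b was thus higher in the knockout in each range, by 2.15-fold, 1.28-fold and 1.11-fold, and higher in both libraries where more Tnp1 was left. At 0.5 to 1% the log2 ratio of 0.16 (-0.045 to 0.36) was within counting error. What part the mix of Tnp1 shares has in the stage ratio was not tested beyond these values. Odf1 was higher in the knockout within each of the same 3 ranges, at 13587 against 12908 CPM, 9657 against 9195 CPM and 7465 against 6577 CPM, although it was lower over the stage as a whole.

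**Figure D4:**
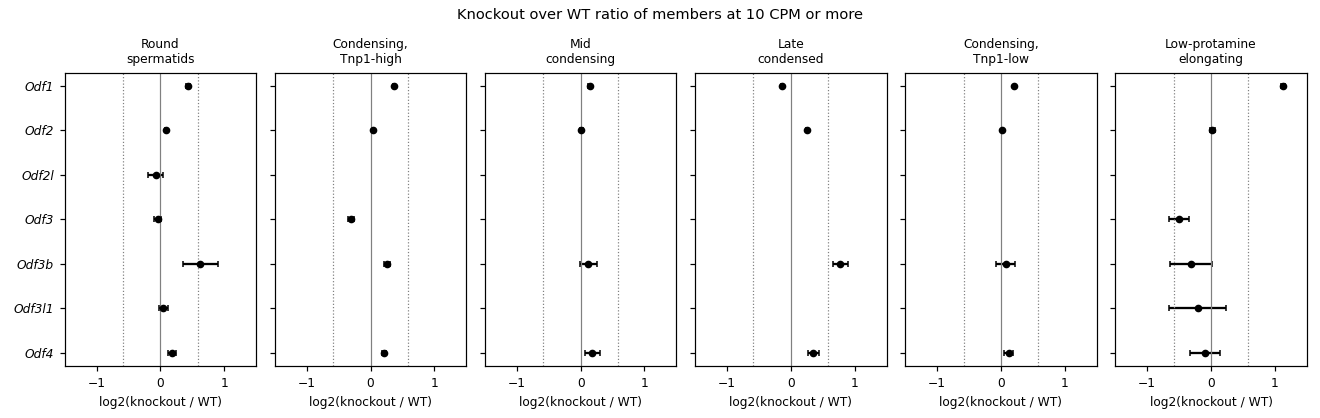
Log2 ratio of knockout over WT level for members at a mean of 10 CPM or more in 6 groups of spermatids (horizontal axis), with 95% conditional binomial intervals for counting error; the solid line marks equal levels and dotted lines 1.5-fold, here without the added 5 CPM. Odf1 in low-protamine elongating cells and Odf3b in late condensed cells lie clear of the dotted lines on the knockout side.

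In low-protamine elongating cells Odf1 was at 14009 CPM in the knockout and 6406 CPM in WT, 2.19-fold higher (log2 ratio 1.13, 1.10 to 1.16). It was the 1 member apart of 6 measured, beside 24.5% of 6590 genes. Odf2 did not share this, at 3568 CPM in the knockout and 3520 CPM in WT. This group mixed cluster c8, with 415 knockout and 210 WT cells, and cluster c12, with 163 and 173 cells. Over all 721 knockout and 418 WT cells of c8, whatever their protamine share, Odf1 was 23945 CPM in the knockout and 21933 CPM in WT. The level in the c8 cells of this group alone is not given here. When these cells were pooled with round spermatids, as a protamine limit of 5% alone does, Odf1 became 1 of 7 members apart (3033 CPM in the knockout and 1322 CPM in WT, 2.29-fold higher), beside 1.4% of 8131 genes. Without cluster c8 that pooled log2 ratio was 0.44, and 0 of the members were apart. In the whole 5 to 15% range 0 of 5 members were apart, beside 6.9% of 4882 genes.

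Before the spermatid stages, 3 members were apart, each at or near background. Odf1 was 1.57-fold higher in knockout late spermatocytes, 1 of 6 measured members beside 3.12% of 8032 genes, with both levels below the Leydig-like ones. Odf3b was at 13.8 CPM in knockout and 7.39 CPM in WT early spermatocytes, from 42 and 38 counts, 1 of 5 beside 6.36% of 9278 genes. Odf3 was at 6.37 CPM in knockout and 15.04 CPM in WT spermatogonia, 1 of 5 beside 3.94% of 9836 genes. In spermatogonia, early spermatocytes and Leydig-like cells alike, Odf1 counts per Odf2 count were 0.745, 0.571 and 0.734 in the knockout and 0.515, 0.554 and 0.572 in WT. They were 0.631 and 0.526 over all barcodes of each library, and only 0.209 and 0.149 in late spermatocytes. Sertoli-like cells held 3563 CPM of Odf1 in the knockout and 1382 CPM in WT, together with protamine shares of 6.12% and 2.05%.

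Over the 13 finer ranges of protamine and Tnp1 share that held enough cells, Odf1 was higher in the knockout in 11, with log2 ratios from -0.20 to 1.09. Odf4 was higher in 11 of 13, with log2 ratios from -0.53 to 0.68, and Odf2 in 9 of 13, from -1.04 to 0.46. The lowest Odf2 ratio was at a protamine share of 5 to 10% with Tnp1 under 1%, where Odf2 was at 5116 CPM in the knockout and 10512 CPM in WT, in 118 and 102 cells, and Odf1 at 20927 and 13224 CPM. Odf3b was higher in 9 of 12 ranges at the minimum level (from -0.70 to 1.47), Odf3 in 4 of 9 (from -2.05 to 0.76), Odf3l1 in 4 of 5 (from -3.21 to 0.40) and Odf2l in 2 of 5 (from -1.14 to 0.64). Ranges past 1.5-fold in either direction numbered 3 each for Odf2l, Odf3 and Odf3b, 2 for Odf1 and 1 each for Odf2, Odf3l1 and Odf4. These ratios are without the added 5 CPM. The share of all genes past 1.5-fold was not computed for these ranges, so the numbers cannot be placed beside it. Some rest on few counts: the lowest Odf3l1 ratio had an interval of -8.70 to -0.25, and the lowest Odf2l ratio -3.83 to 1.22. Ranges of a library share its cells' source and are not replicates.

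A list of 13 genes for proteins that bind fibre proteins or take part in the tail was followed beside the members. It included Spag4, Spag5 and Klc3, whose rat products bind ODF1, Ccdc42, whose product binds ODF1 and ODF2, and Tssk4, for a kinase of ODF2. It also included Oaz3, Tekt4, Cylc1, Hspb9, Spata6, Vdac2 and Vdac3. In round spermatids 0 of 12 measured were apart, beside 0.365% of 8219 genes. Their median log2 ratio was 0.05, beside 0.09 for the 7 members and -0.04 for all genes. Oaz3, at 1558 CPM in the knockout and 1377 CPM in WT, and Spata6, at 1098 and 1039 CPM, had small differences there. In Tnp1-high condensing cells 2 of 11 were apart, both lower in the knockout, beside 7.71% of 4966 genes. The median over the 11 was -0.08, beside 0.20 for members and -0.08 for all genes. The 2 apart were Vdac2, a mitochondrial porin, at 31.3 CPM in the knockout and 73.1 CPM in WT, and Tekt4, a tektin, at 10.02 and 21.8 CPM. Estimated free RNA was 10.2 and 43.3 CPM for Vdac2 and 3.71 and 13.1 CPM for Tekt4, so it also was higher in WT. What part free RNA has in both ratios was not tested further. In mid condensing cells 3 of 10 were apart, all lower in the knockout, beside 11.4% of 4190 genes: Vdac2, Vdac3 and Tekt4. In Tnp1-low condensing cells 2 of 10 were apart and lower, Vdac2 and Tekt4, beside 9.23% of 4169 genes. Of 10 measured in late condensed cells, 1 was apart and higher in the knockout and 2 apart and lower, beside 13.6% of 4038 genes. The higher was Spata6, needed for the sperm head-tail connection, at 3043 CPM against 2025 CPM in WT. The lower were again Vdac2 and Tekt4.

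Oaz3, which encodes a germ cell antizyme, and Hspb9, a small heat shock protein gene, were also higher in knockout low-protamine elongating cells. Oaz3 was at 26061 CPM in the knockout and 13090 CPM in WT there, and Hspb9 at 3880 and 1999 CPM. Oaz3 was among the markers used to name the elongating class. Of 13 partners, 3 were apart and higher in the knockout and 3 apart and lower, beside 24.5% of 6590 genes. The lower ones were Ccdc42, at 6.62 CPM in the knockout and 19.9 CPM in WT, Spag5, at 7.50 and 15.7 CPM, and Vdac2, at 131 and 206 CPM. Over the 13 partners the median log2 ratio in these cells was -0.35, the same as for all genes, -0.35, beside -0.13 for 6 members.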

How the data were processed

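Per the labels' protocols, testes were minced, digested with enzymes, strained and lysed, and single-cell libraries were prepared with the DNBelab C series system. The authors deposited a matrix of whole-number counts per gene and barcode for each library, written by PISA 0.12 per the file headers. GRCm38 is named as the build by the submitters' processing notes. No aligner, counting annotation or barcode filter is given in the sources used here. Barcodes are taken as cells and counts as UMIs. The knockout matrix held 16837 barcodes and 210531446 counts, the WT matrix 16376 barcodes and 220247156 counts. Of the barcode names, 2168 occur in both matrices; they are merged-bead numbers, so a shared name does not show a shared cell.

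Kept cells had 200 genes or more and no more than 20% mitochondrial counts. In scanpy 1.11.5, log values of counts per 10000 were used, and 3000 variable genes gave 40 principal components, a graph of 20 neighbours and 23 Leiden clusters at resolution 1 (igraph 0.11.9). Clusters c2 and c19 stayed unnamed. Scrublet called 4.48% of knockout and 3.96% of WT cells doublets, which were kept. Counts were summed per library and stage and divided by the stage total, with exact Poisson intervals for levels, conditional binomial intervals for ratios and Clopper-Pearson intervals for shares (Python 3.11.15, numpy 2.4.6, scipy 1.17.1, pandas 2.3.3, scikit-learn 1.9.0). For thinned shares each cell was drawn down to 1000 UMIs, and no kept cell was shallower. Every member is named, together with the genes of a list of 13 partners and, for each member, the 3 genes most like it, leaving out mitochondrial, ribosomal protein and predicted genes. Of the partner list, 1 gene enters the counts and medians but its values are not reported here. The members, lists and markers were chosen with earlier results of these data known. Coordinates are from GENCODE M21. Counts were simulated with counting error alone, from 1 profile shared by both libraries. On simulated counts of 8259 genes in round spermatids, the 1.5-fold rule picked 66 of 66 genes with a true fold of 2. It picked 63 of 67 with a true fold of 3 and 0 of 8059 without a change. In elongating spermatids (4772 genes) it picked 54 of 62, 58 of 64 and 0 of 4572. Other differences between libraries were not simulated, so these numbers do not give the rate of false picks in the data. Alternatives were other priors, minimum levels, cell filters, stage limits, denominators, scaling, clustering, weighting of cells, removal of doublets and subtraction of free RNA.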

Additional observations from a re-analysis of the deposited data

How the results depend on the processing

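Each of 8 stage summaries, the number of members apart and the median log2 ratio of members in 4 stages as the limits alone define them, was recomputed under 16 alternatives. The numbers apart were 1 in the round range (protamine share under 5%), 0 in the 5 to 15% range, 0 in mid condensing and 1 in late condensed cells, and the medians 0.12, -0.03, 0.13 and 0.30. With no minimum level, the medians were 0.059, -0.072, 0.0062 and -0.070, and 1 member was apart in mid condensing cells; with a minimum of 50 CPM the median of the round range was 0.041. With stage limits multiplied by 0.8, the median of the 5 to 15% range was 0.014 and that of late condensed cells 0.19 with 0 members apart; multiplied by 1.2, the medians were 0.35 in mid condensing cells, with 1 member apart, and 0.54 in late condensed cells. Without protamines and transition proteins in the denominator the median of the 5 to 15% range was 0.0080. With trimmed mean scaling the medians were 0.23, 0.28, 0.49 and 0.58, with 1 member apart in the 5 to 15% range (Odf3b) and 2 in late condensed cells (Odf3b and Odf4). Shares of all genes apart are given for the main setting only. Numbers of members apart under the alternatives therefore cannot be placed beside all genes. With free RNA subtracted the medians of the first pair of ranges were 0.046 and -0.080, and with a mean over cells -0.0042 and 0.078. Some alternatives were chosen after the data were seen: with the round class alone and Tnp1-low cells pooled as late condensed, 0 members were apart in round spermatids and the medians were 0.20 in the 5 to 15% range and 0.12 in late condensed cells, and without cluster c8 0 members were apart in the round range. The remaining settings (priors of 1 and 20 CPM, the stricter cell filter, doublet removal, stages without clusters and Leiden resolution 2) moved none of the 8 summaries beyond counting error; the cause of these shifts was not tested. Over the alternatives, the log2 ratio of Odf3b in late condensed cells ran from 0.53 to 1.58 and that of Odf1 in the round range from 0.43 to 1.31. In each setting and both libraries Odf2l was highest in early spermatocytes, Odf3 and Odf3l1 in round spermatids and Odf1 in late condensed cells, among the 7 stages. The highest stage of Odf2, Odf3b and Odf4 was not so fixed. In the main setting Odf2 was highest in late condensed knockout and mid condensing WT cells, and with limits multiplied by 0.8 in late condensed cells of both. With limits multiplied by 1.2, WT Odf4 was highest in the 5 to 15% range. Without cluster c8, knockout Odf3b was highest in late condensed cells. Depth limits Odf3l2, at 1 knockout and 3 WT counts. No paired analysis was possible because there is 1 library per genotype.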
